A study of Mus musculus with 16 samples.

Results

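The gp130 cytokine family was followed in mouse tail tendon fascicles through 10 genes of 25719 listed in the count files. They are the receptor genes Cntfr, Il11ra1, Il6ra, Lifr, Osmr and Il6st, the cytokine genes Lif, Clcf1 and Il6, and the feedback inhibitor gene Socs3. The list was drawn up by name from knowledge of the pathway and with the contrast between the genotypes already seen, Cntfr having been noticed because it was nearly lost in the knockout. The values of these 10 genes between the genotypes are therefore given as a description and carry no p-value.

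RNA was sequenced from 8 wild type and 8 knockout libraries of tail tendon fascicles, thin strands of collagen with the cells between them. The knockout is ScxCre;Vhlf/f, in which Cre recombinase under the promoter of the tendon gene Scx removes the floxed segment of Vhl from Scx-lineage cells. Vhl encodes the substrate-recognition part of the ubiquitin ligase that removes HIF1α at normal oxygen. Fascicles were frozen on dissection and ground whole, and the cell type is labelled as all cells of the tissue, so cells outside the Scx lineage kept an intact Vhl gene and contributed to each library. Strain, age and sex of the mice, and whether the wild type mice carried the floxed allele without Cre, are not given in the sources used here. Libraries are called KO1 to KO8 and WT1 to WT8 by the numbers in their titles. Nothing states that each came from a separate mouse, so the p-values measure the spread between these libraries.

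Cytokines of this family signal through the shared receptor chain gp130, encoded by Il6st. IL-6 and IL-11 first bind their own alpha receptors, IL6RA and IL11RA, and then a pair of gp130 chains, whereas LIF joins gp130 to LIFR, and oncostatin M in mice joins gp130 mainly to OSMR. CNTF and CLCF1 need the alpha receptor CNTFR, which is tethered to the membrane by a lipid anchor and has no signalling domain of its own, in addition to LIFR and gp130. The assembled receptors activate JAK kinases and STAT factors, mainly STAT3, and STAT3 induces SOCS3, which blocks the receptor complex. In tendon, cytokines of this family are known from injury and inflammation.

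Windows around the transcription start are shown for Cntfr, Il11ra1, Osmr and Lif, whose levels did not overlap between the genotypes, and for Il6ra and Socs3, which hold a searched motif. Windows run from 250 bases before to 50 bases after an annotated start and were taken from RefSeq on GRCm38.p6, in which 9 members had 16 windows. The motifs searched on both strands were ACGTG, the core of the hypoxia response element, and TTCNNNGAA, the palindrome that STAT factors bind. Matches of the 2 motifs can share at most 1 letter, and capitals mark each match.
Cntfr, minus strand, chr4:41695404-41695703: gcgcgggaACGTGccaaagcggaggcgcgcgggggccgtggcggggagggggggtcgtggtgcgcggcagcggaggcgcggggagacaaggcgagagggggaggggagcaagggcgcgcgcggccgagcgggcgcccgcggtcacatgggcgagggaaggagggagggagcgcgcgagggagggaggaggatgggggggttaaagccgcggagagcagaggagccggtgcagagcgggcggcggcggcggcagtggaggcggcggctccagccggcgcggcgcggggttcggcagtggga
Il11ra1, plus strand, chr4:41760193-41760492: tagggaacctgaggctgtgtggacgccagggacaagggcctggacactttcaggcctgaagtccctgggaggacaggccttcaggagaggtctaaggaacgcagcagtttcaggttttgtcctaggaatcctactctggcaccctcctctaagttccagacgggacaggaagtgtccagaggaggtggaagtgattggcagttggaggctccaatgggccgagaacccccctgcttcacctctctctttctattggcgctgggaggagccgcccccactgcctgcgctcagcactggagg
Il6ra, minus strand, chr3:89913147-89913446: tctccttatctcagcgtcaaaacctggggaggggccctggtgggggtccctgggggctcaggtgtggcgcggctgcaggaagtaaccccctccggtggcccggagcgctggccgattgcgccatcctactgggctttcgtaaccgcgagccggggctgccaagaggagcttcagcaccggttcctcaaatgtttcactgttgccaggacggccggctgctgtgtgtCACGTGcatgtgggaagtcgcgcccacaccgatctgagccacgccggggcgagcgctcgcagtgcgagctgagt
Osmr, minus strand, chr15:6874264-6874563: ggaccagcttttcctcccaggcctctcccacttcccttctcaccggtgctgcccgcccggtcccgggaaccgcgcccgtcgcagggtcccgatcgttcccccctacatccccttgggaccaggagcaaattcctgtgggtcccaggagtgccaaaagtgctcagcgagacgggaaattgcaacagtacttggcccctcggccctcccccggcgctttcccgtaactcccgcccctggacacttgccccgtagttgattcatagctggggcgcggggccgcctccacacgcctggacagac
Lif, plus strand, chr11:4257318-4257617: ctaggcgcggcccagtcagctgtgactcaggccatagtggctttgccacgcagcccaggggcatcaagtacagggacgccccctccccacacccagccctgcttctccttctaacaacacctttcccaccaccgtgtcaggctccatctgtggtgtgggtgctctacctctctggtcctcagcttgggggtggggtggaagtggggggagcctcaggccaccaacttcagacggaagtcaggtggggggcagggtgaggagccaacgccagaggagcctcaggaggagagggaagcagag
Socs3, minus strand, chr11:117969317-117969616: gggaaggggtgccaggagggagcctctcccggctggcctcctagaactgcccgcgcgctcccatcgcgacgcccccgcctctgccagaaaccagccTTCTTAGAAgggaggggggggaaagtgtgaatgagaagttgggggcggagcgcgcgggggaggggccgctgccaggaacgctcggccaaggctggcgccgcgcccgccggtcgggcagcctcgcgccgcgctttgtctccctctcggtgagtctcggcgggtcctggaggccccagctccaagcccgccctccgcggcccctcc
In the Cntfr window ACGTG begins 242 bases before the start. Cntfr has 6 windows, and the same single site lies in 3 of them that overlap one another. The Il6ra window holds the palindrome CACGTG, which is a match on each strand, beginning 24 and 23 bases before the start. The Socs3 window holds 1 STAT palindrome, beginning 154 bases before the start. The windows of Osmr, Lif, Lifr, Il6st and Il6, and both windows of Il11ra1, held neither motif, and Clcf1 was not matched. ACGTG was found in 6447 of 32851 windows in the table (19.6%) and TTCNNNGAA in 2726 (8.30%), so both motifs are common and a match describes the letters only.

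Library totals lay between 10488355 and 18753254 counts. Vhl was lower in every knockout library (7.51 to 10.9 CPM, counts scaled to a common TMM-adjusted library size) than in any wild type library (14.1 to 25.8 CPM). All 10 tenocyte markers were measured, with a summed level of 136597 to 386475 CPM in wild type and 82387 to 183816 CPM in knockout libraries. Most of this sum came from Col1a1 and Col1a2, with wild type means of 153493 and 107971 CPM. WT3 stood apart in having 12.0% of its counts in the type I collagen genes, against 19.7% to 29.2% in the other wild type libraries and 7.70% to 18.4% in the knockout. The genotypes differed across much of the transcriptome: 7151 of 14803 tested genes (48.3%) passed the threshold of an adjusted p under 0.05 in edgeR's quasi-likelihood test, 53.0% of them higher in the knockout. With total counts in place of TMM scaling 85.4% of the calls were higher, and the median log2 fold change of all tested genes moved from 0.02 to 0.32. All fold changes below are knockout over wild type on the TMM scale.

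Il6 was too low for the test. Of the 9 members tested, 7 were past the threshold (2 higher, 5 lower), beside 25.6% and 22.7% of all tested genes. Nothing is read from these counts, or from the calls of single members given below, because the members were chosen on this contrast. In 4 members the genotypes did not overlap in any library: Lif and Osmr were higher, and Cntfr and Il11ra1 were lower, where 10.8% and 8.61% of all tested genes showed such a separation. The median log2 fold change of the 9 members was -0.19.

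**Figure D1:**
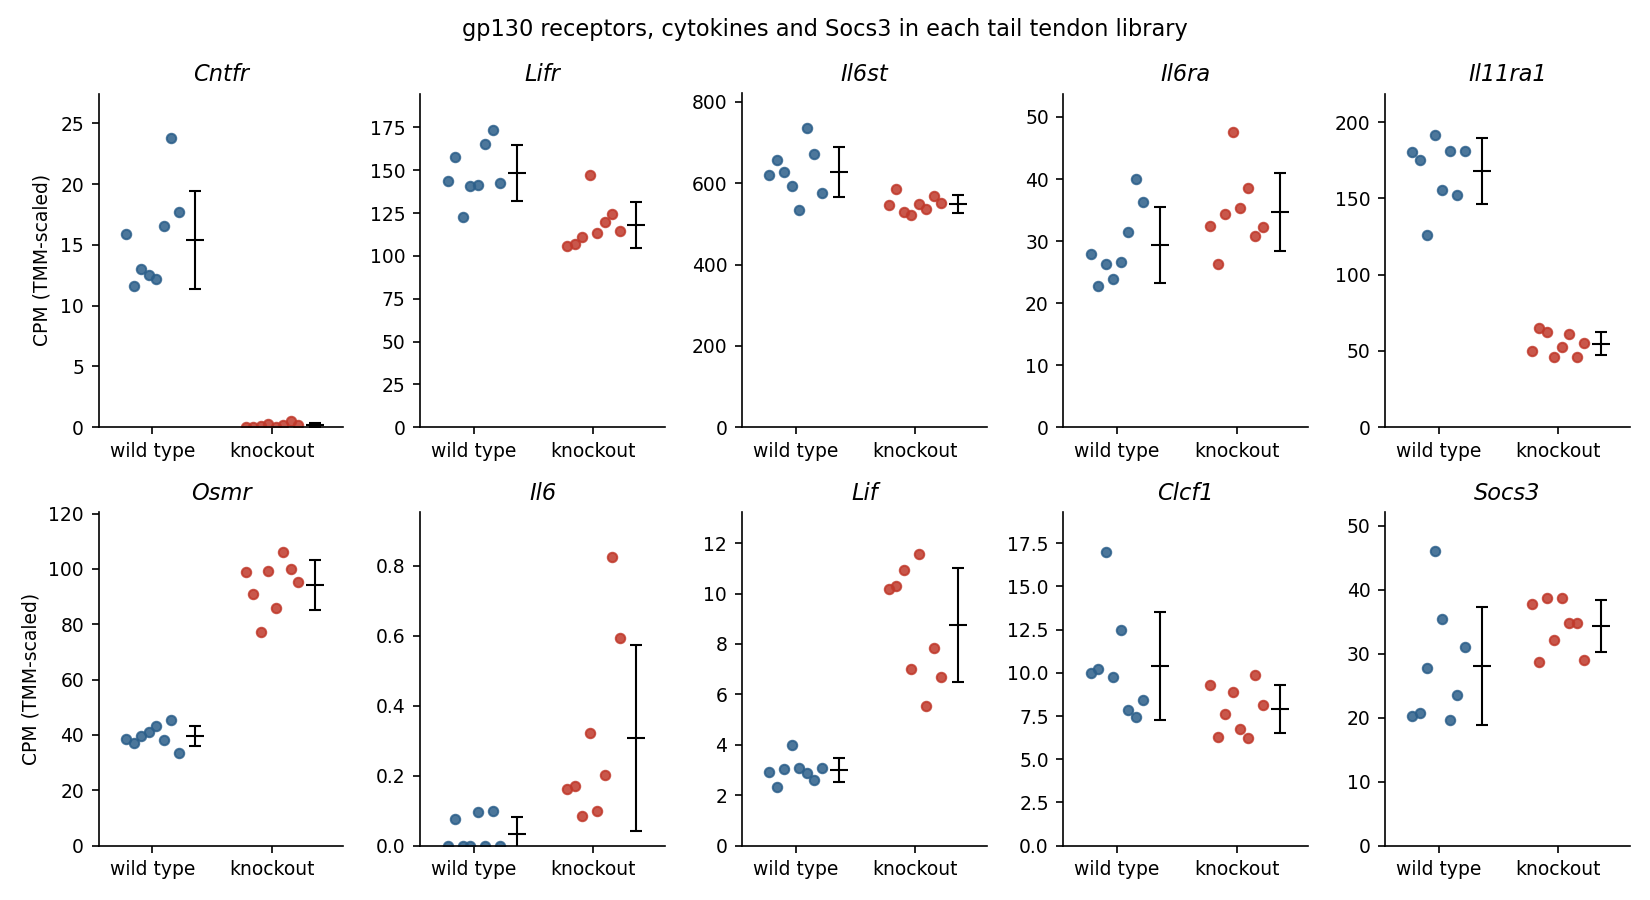
Level of each of the 10 genes in CPM (vertical axes, linear, a separate scale per gene) in the 8 knockout and 8 wild type libraries. Each dot is 1 library and the bar is the mean ± SD, with the lower end of a bar drawn no lower than the axis. Cntfr and Il11ra1 separate downward and Osmr and Lif upward in the knockout, while the other 6 genes overlap.

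Of the 3 alpha receptors, Cntfr was nearly absent from the knockout, Il11ra1 was lower in every knockout library and Il6ra overlapped between the genotypes. Cntfr (ENSMUSG00000028444, chromosome 4) had 11.6 CPM in the lowest, 14.5 in the median and 23.8 in the highest wild type library. In the knockout the lowest library had 0 CPM, the median was 0.119 and the highest library had 0.533. Every wild type library was far above every knockout library, and the lowest wild type value was that of WT2. In counts, the wild type libraries held 127 to 239 reads each and 1388 in all. The 8 knockout libraries held 21 in all, 11 of them in KO7, with 0 in KO1 and KO2 and 1 to 3 in the other 5. A count of 3, used as the floor of detection, corresponded to 0.243 CPM in KO1 and 0.255 CPM in KO2, so a level below that was not detectable there. KO7 was thus the 1 knockout library clearly above the floor.

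The mean of Cntfr was 15.4 ± 4.05 CPM over the wild type libraries and 0.154 ± 0.175 CPM over those of the knockout (SD, n = 8), so 0.998% of the wild type level was left. The ratio of summed counts per effective library size was 86.7 (wild type over knockout, 95% interval 56.5 to 140, counting error only). The fitted log2 fold change was -6.42 (SE 0.348), and 11 tested genes had a larger decrease. Without KO7 it was -7.13. In whole tissue, fewer cells of a type and less RNA per cell cannot be told apart, for Cntfr and for each gene that follows.

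Il11ra1 (ENSMUSG00000073889, chromosome 4), the alpha receptor of IL-11, had 126, 178 and 192 CPM in the lowest, median and highest wild type libraries. The corresponding knockout values were 45.9, 54.0 and 65.1 CPM. The groups were well apart, and the lowest wild type library was WT3, the one with the smallest share of type I collagen reads. The wild type mean was 168 ± 21.6 CPM and the knockout mean 54.7 ± 7.43 CPM (SD, n = 8), the log2 fold change was -1.62 (SE 0.0943), and 294 tested genes had a larger decrease. The mouse genome holds close copies of this gene. Il11ra2, Gm13305 and Gm13306 had at most 6 counts in any library, so few reads were assigned to them. How reads that match several copies were counted is not given in the sources used here, so the level of Il11ra1 is uncertain.

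Il6ra (ENSMUSG00000027947, chromosome 3), the alpha receptor of IL-6, had 22.7, 27.3 and 40.0 CPM in the lowest, median and highest wild type libraries and 26.4, 33.4 and 47.6 CPM in the knockout. The groups overlapped over most of their range. The log2 fold change was 0.24 (SE 0.124). With total counts it was 0.55. The alpha receptors thus had 3 different patterns in the same libraries, with KO4 holding the highest and KO2 the lowest Il6ra level of the knockout.

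Among the 3 signalling chains, Osmr was higher in every knockout library. Lifr and Il6st were slightly lower on average with overlapping groups, though Il6st was not lower with total counts. Osmr (ENSMUSG00000022146, chromosome 15) had 33.5, 39.0 and 45.5 CPM in the lowest, median and highest wild type libraries and 77.1, 97.0 and 106 CPM in the knockout. The lowest knockout library, KO3, was well above the highest wild type library, WT7. The wild type mean was 39.5 ± 3.69 CPM and the knockout mean 94.2 ± 9.19 CPM (SD, n = 8), a log2 fold change of 1.25 (SE 0.0710). A larger increase was found for 1044 tested genes.

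Lifr (ENSMUSG00000054263, chromosome 15), the partner of gp130 for LIF, CNTF and CLCF1, had 123, 143 and 174 CPM in the lowest, median and highest wild type libraries. The knockout had 106, 114 and 147 CPM. The groups overlapped through KO4, which was far above the other knockout libraries, and through WT3, the lowest wild type library. The log2 fold change was -0.33 (SE 0.0782), but -0.02 with total counts, so the lower level depended on the scaling.

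Il6st (ENSMUSG00000021756, chromosome 13), the shared chain gp130, was the most abundant member. It had 535, 624 and 735 CPM in the lowest, median and highest wild type libraries and 522, 547 and 587 CPM in the knockout. The knockout libraries lay close together at the lower end of the wild type range. The log2 fold change was -0.19 (SE 0.0685), and it turned to 0.11 with total counts.

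Of the cytokines, Lif was higher in every knockout library, Clcf1 overlapped between the genotypes and Il6 was near the floor of detection. Lif (ENSMUSG00000034394, chromosome 11) had 2.34, 2.98 and 3.97 CPM in the lowest, median and highest wild type libraries and 5.53, 9.03 and 11.6 CPM in the knockout. The groups did not overlap, and the gap was narrow between KO6, the lowest knockout library, and WT4, the highest wild type library. The means were 8.76 ± 2.26 and 2.99 ± 0.476 CPM (SD, n = 8) in the knockout and the wild type, and the log2 fold change was 1.54 (SE 0.160). A larger increase was found for 825 tested genes.

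Clcf1 (ENSMUSG00000040663, chromosome 19), a ligand of CNTFR, had 7.46, 9.87 and 17.0 CPM in the lowest, median and highest wild type libraries and 6.24, 7.88 and 9.89 CPM in the knockout. The wild type library with the highest level was WT3, and without it the log2 fold change of -0.40 (SE 0.157) was -0.26. The genotypes overlapped. Of its exon sequence 311 bases are shared with AC109138.7 on the same strand, so its counts are uncertain.

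Il6 (ENSMUSG00000025746, chromosome 5) had 39 counts in the 8 knockout libraries and 3 in the 8 wild type libraries, with 0 in 5 of the latter. The knockout libraries ran from 0.0854 CPM in KO3, where 1 read was counted, through a median of 0.186 to 0.824 CPM in KO7, where 17 were counted. The ratio of summed counts per effective library size was 9.91 (knockout over wild type, 95% interval 3.15 to 50.1, counting error only). KO7 therefore held the largest number of reads of both Il6 and Cntfr within the knockout.

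Socs3 (ENSMUSG00000053113, chromosome 11), the feedback inhibitor, had 19.6, 25.6 and 46.0 CPM in the lowest, median and highest wild type libraries. In the knockout it had 28.7, 34.8 and 38.8 CPM. The knockout range lay wholly inside the wild type range, whose upper end was set by WT4 and then WT5. The log2 fold change was 0.29 (SE 0.155), and it was 0.43 without WT4 and 0.58 with total counts. The difference between the genotypes in Socs3 was thus small beside the spread of the wild type libraries.

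Levels of different genes were compared as CPM per kilobase of exon, a level on a linear scale. In the wild type the order from high to low was Il6st (56.5 ± 5.57), Il11ra1 (37.5 ± 4.82), Lifr (13.8 ± 1.50), Socs3 (9.69 ± 3.18), Cntfr (5.54 ± 1.46), Il6ra (3.40 ± 0.704), Osmr (3.26 ± 0.305), Clcf1 (2.73 ± 0.818), Lif (0.687 ± 0.109) and Il6 (0.0140 ± 0.0195; SD, n = 8). The 6 genes from Lifr to Clcf1 formed a series in which each overlapped its neighbour in range, while Il6st, Il11ra1, Lif and Il6 were apart from theirs. Il11ra1 was the most abundant alpha receptor transcript per length in both genotypes.

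In the knockout the order was Il6st (49.4 ± 1.90), Il11ra1 (12.2 ± 1.66), Socs3 (11.9 ± 1.40), Lifr (10.9 ± 1.24), Osmr (7.78 ± 0.759), Il6ra (4.02 ± 0.730), Clcf1 (2.07 ± 0.369), Lif (2.01 ± 0.519), Il6 (0.127 ± 0.109) and Cntfr (0.0553 ± 0.0630; SD, n = 8). Il11ra1, Socs3 and Lifr overlapped as neighbours, as did Clcf1 and Lif, and Il6 and Cntfr. Cntfr had moved from the fifth to the last place. With the longest transcript as the length, the ranges of Il6st and Il11ra1 overlapped in the wild type (61.7 to 84.7 and 48.4 to 73.5). Osmr came before Il6ra in the wild type, with ranges apart (7.20 against 3.40 on average), and before Socs3 and Lifr in the knockout (17.2). The annotated exons of Osmr span 12.1 kb in all and its longest transcript 5.49 kb.

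**Figure D2:**
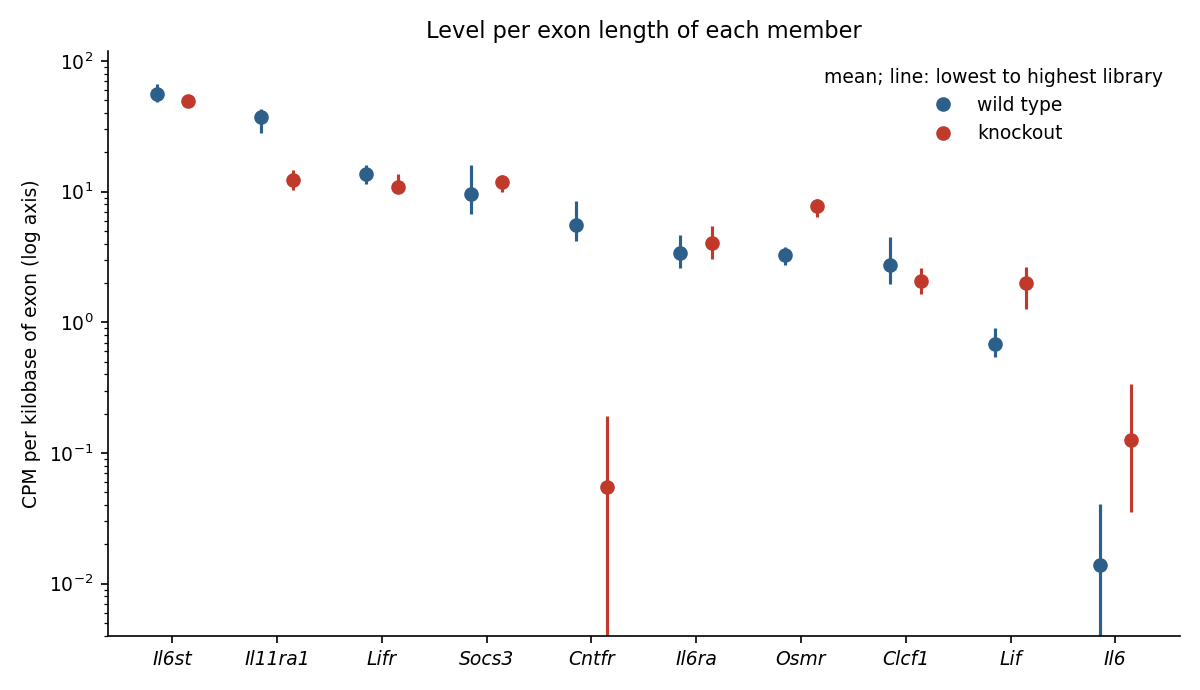
CPM per kilobase of exon (vertical axis, log scale) of the 10 genes in wild type and knockout. The dot is the mean of 8 libraries and the line runs from the lowest to the highest library, reaching the edge of the plot where the lowest library had 0 counts. Il6st is highest in both genotypes, and Cntfr has the lowest mean in the knockout.

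Ratios within a library do not depend on the scaling between libraries. Osmr stood at 0.239 ± 0.0308 of Lifr in wild type libraries and at 0.716 ± 0.0799 in the knockout (per kilobase, SD, n = 8), with ranges of 0.205 to 0.287 and 0.601 to 0.829. Il11ra1 stood at 11.5 ± 2.79 times Il6ra in wild type libraries and 3.15 ± 0.814 times in the knockout. Summed over Cntfr, Il11ra1 and Il6ra, the alpha receptors stood at 0.828 ± 0.112 of Il6st in wild type libraries and 0.330 ± 0.0343 in the knockout, again without overlap. Most of this sum was Il11ra1 in both genotypes (37.5 and 12.2 CPM per kilobase), whose level is uncertain. Lifr and Osmr together stood at 0.303 ± 0.0269 and 0.379 ± 0.0422 of Il6st, and these ranges overlapped.

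The length used changed the size of these ratios and 1 of the comparisons. With the longest transcript in place of all exons, Osmr stood at 0.472 ± 0.0609 of Lifr in wild type libraries and at 1.41 ± 0.158 in the knockout (SD, n = 8), which puts Osmr above Lifr in every knockout library. Il11ra1 then stood at 19.6 and 5.40 times Il6ra, and the alpha receptors together at 1.05 and 0.397 of Il6st, each without overlap between the genotypes. Lifr and Osmr together ran from 0.276 to 0.365 of Il6st in wild type libraries and from 0.409 to 0.554 in the knockout, so that these ranges no longer overlapped. All these ratios describe the same contrast that chose the members.

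The other genes of the pathway were taken from lists by known function. Of 10 further cytokines and cofactors 5 were expressed enough to be tested, and 2 passed the threshold, beside 48.3% of all tested genes. Ctf1, which encodes cardiotrophin 1, a ligand of LIFR and gp130, was at 2.75 ± 1.27 CPM in wild type libraries and fell to 1.67 ± 0.417 (SD, n = 8), a log2 fold change of -0.72 (SE 0.249, edgeR adjusted p = 0.0224), a call that was lost without WT4, at -0.50. Cntf, Il11 and Ebi3 did not pass, with log2 fold changes of 0.34, 0.13 and 0.39. The counts of Cntf are uncertain, because most of its exon sequence (847 bases) is shared with Zfp91 on the same strand. Osm, the ligand of OSMR, was too low to be tested, at 0.380 ± 0.110 CPM in wild type and 0.635 ± 0.335 CPM in knockout libraries (SD, n = 8). The median log2 fold change of the 5 tested genes was 0.34, against 0.02 over all tested genes.

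Of 8 other receptors and proteins that bind or cut the receptors, 5 were tested and 3 passed, beside 48.3% of all tested genes. Sorl1, a sorting receptor that can carry IL-6 and receptors of this family into the cell, had 40.5, 53.5 and 71.6 CPM in the lowest, median and highest wild type libraries and 5.14, 9.87 and 12.1 CPM in the knockout. The groups were far apart, and the log2 fold change was -2.62 (SE 0.177, edgeR adjusted p = 8.70e-10). Rhbdf2, whose product iRhom2 is needed for the maturation of ADAM17, rose by 1.16 on the log2 scale (SE 0.142, edgeR adjusted p = 1.28e-06). Adam17, the protease that sheds IL6RA from the cell surface, rose by 0.50 (SE 0.0603, edgeR adjusted p = 1.02e-06), from 59.4 ± 4.28 to 84.2 ± 6.99 CPM (SD, n = 8). Both genes were higher in every knockout library than in any wild type library. Adam10 and Il12rb2 did not pass, at -0.09 and 0.07, and the median of the list was 0.07.

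All 14 JAK kinases, STAT factors and adaptors were tested, and 4 passed (1 higher, 3 lower), beside 48.3% of all tested genes. Stat3, the main transcription factor of the pathway, had 82.3, 95.2 and 105 CPM in the lowest, median and highest wild type libraries and 128, 139 and 164 CPM in the knockout. The groups did not overlap, and the log2 fold change was 0.55 (SE 0.0611, edgeR adjusted p = 3.94e-07). Stat5b, Gab1, which is a docking protein downstream of gp130, and Jak1, the kinase most used by gp130, fell by 0.37, 0.35 and 0.30 on the log2 scale (edgeR adjusted p = 9.23e-05, 0.0134 and 0.000481). None of these 3 passed with total counts, where Jak1 was at 0.01. Jak2 and Tyk2 did not pass, at 0.10 (SE 0.0511) and 0.01 (SE 0.0876). The median of the list was 0.01, close to that of all tested genes, and 10 of the 14 passed with total counts, all of them higher.

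Of 15 other inhibitors of the pathway, all tested, 9 passed (5 higher, 4 lower), beside 25.6% higher and 22.7% lower over all tested genes. Ptprt, a receptor tyrosine phosphatase with STAT3 among its substrates, was at 16.6 ± 5.67 CPM in wild type libraries and fell to 1.14 ± 0.478 (SD, n = 8), a log2 fold change of -3.86 (SE 0.271, edgeR adjusted p = 1.26e-09). Every knockout library, with at most 1.94 CPM, was below every wild type library, with at least 8.50 CPM. Ptpn2, a phosphatase of JAK1 and STAT factors, rose by 0.88 (SE 0.0918, edgeR adjusted p = 1.54e-07). Socs2, known for its feedback on growth hormone signalling, fell by 0.84 (SE 0.144, edgeR adjusted p = 7.64e-05). Pias3, which binds STAT3, and Socs5 fell by 0.42 and 0.38 (edgeR adjusted p = 5.86e-05 and 0.00213), calls that were lost with total counts. The remaining 4 calls, named after their values were seen, were higher in the knockout and smaller: Ptpn1 (0.31), Socs6 (0.28), Ptpn6 (0.27) and Pias1 (0.19). Socs1 and Cish, which like Socs3 are induced by STAT factors, did not pass, at -0.32 and -0.62. The median of the list was 0.06.

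Of 30 STAT3 and acute-phase response genes 23 were tested, and 14 passed (13 higher, 1 lower), beside 25.6% higher and 22.7% lower over all tested genes. The median log2 fold change was 0.74, against 0.02 over all tested genes. In 9 of the 23 tested genes every knockout library was above every wild type library, beside 10.8% of all tested genes. A2m, a protease inhibitor of the acute phase, had 153 ± 26.2 CPM in the knockout (SD, n = 8) and 4 counts in all 8 wild type libraries together, so it was at least 575-fold higher against a floor of 3 counts per library (edgeR adjusted p = 5.09e-16). Vegfa, the vessel growth factor and a textbook HIF target, was at 24.3 ± 2.78 CPM in wild type libraries and rose to 399.5 ± 96.5 (SD, n = 8), a log2 fold change of 4.04 (SE 0.139, edgeR adjusted p = 2.16e-14). Cp, which encodes ceruloplasmin and is known both as an acute-phase gene and as a HIF target, rose by 2.70 (SE 0.174, edgeR adjusted p = 2.86e-10). Il1rn, the antagonist of the IL-1 receptor, rose by 2.68 (SE 0.286), and Birc5, an inhibitor of apoptosis expressed in dividing cells, rose by 2.49 (SE 0.306; edgeR adjusted p = 2.10e-07 and 1.36e-06).

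The 1 gene that fell, named after its value was seen, was the acute-phase gene Saa3 (log2 fold change -0.96, SE 0.361, edgeR adjusted p = 0.0351). Cebpb, Cebpd, Mcl1, Bcl2l1, Ccnd1, Serpina3n, Steap4, Hif1a and Vim did not pass, with log2 fold changes from -0.17 for Bcl2l1 to 0.57 for Cebpd. Lcn2, Lrg1, Hp, Fgg, Orm1, Gfap and Batf did not pass the expression filter and were not tested, and Fgg had no counts. Lrg1 was still higher in every knockout library than in any wild type library (320 against 15 counts in all). Gfap was lower in every knockout library (24 against 68 counts in all), and the groups of the others overlapped. The list was put together with earlier results of these libraries known, so its direction is no independent evidence.

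**Figure D3:**
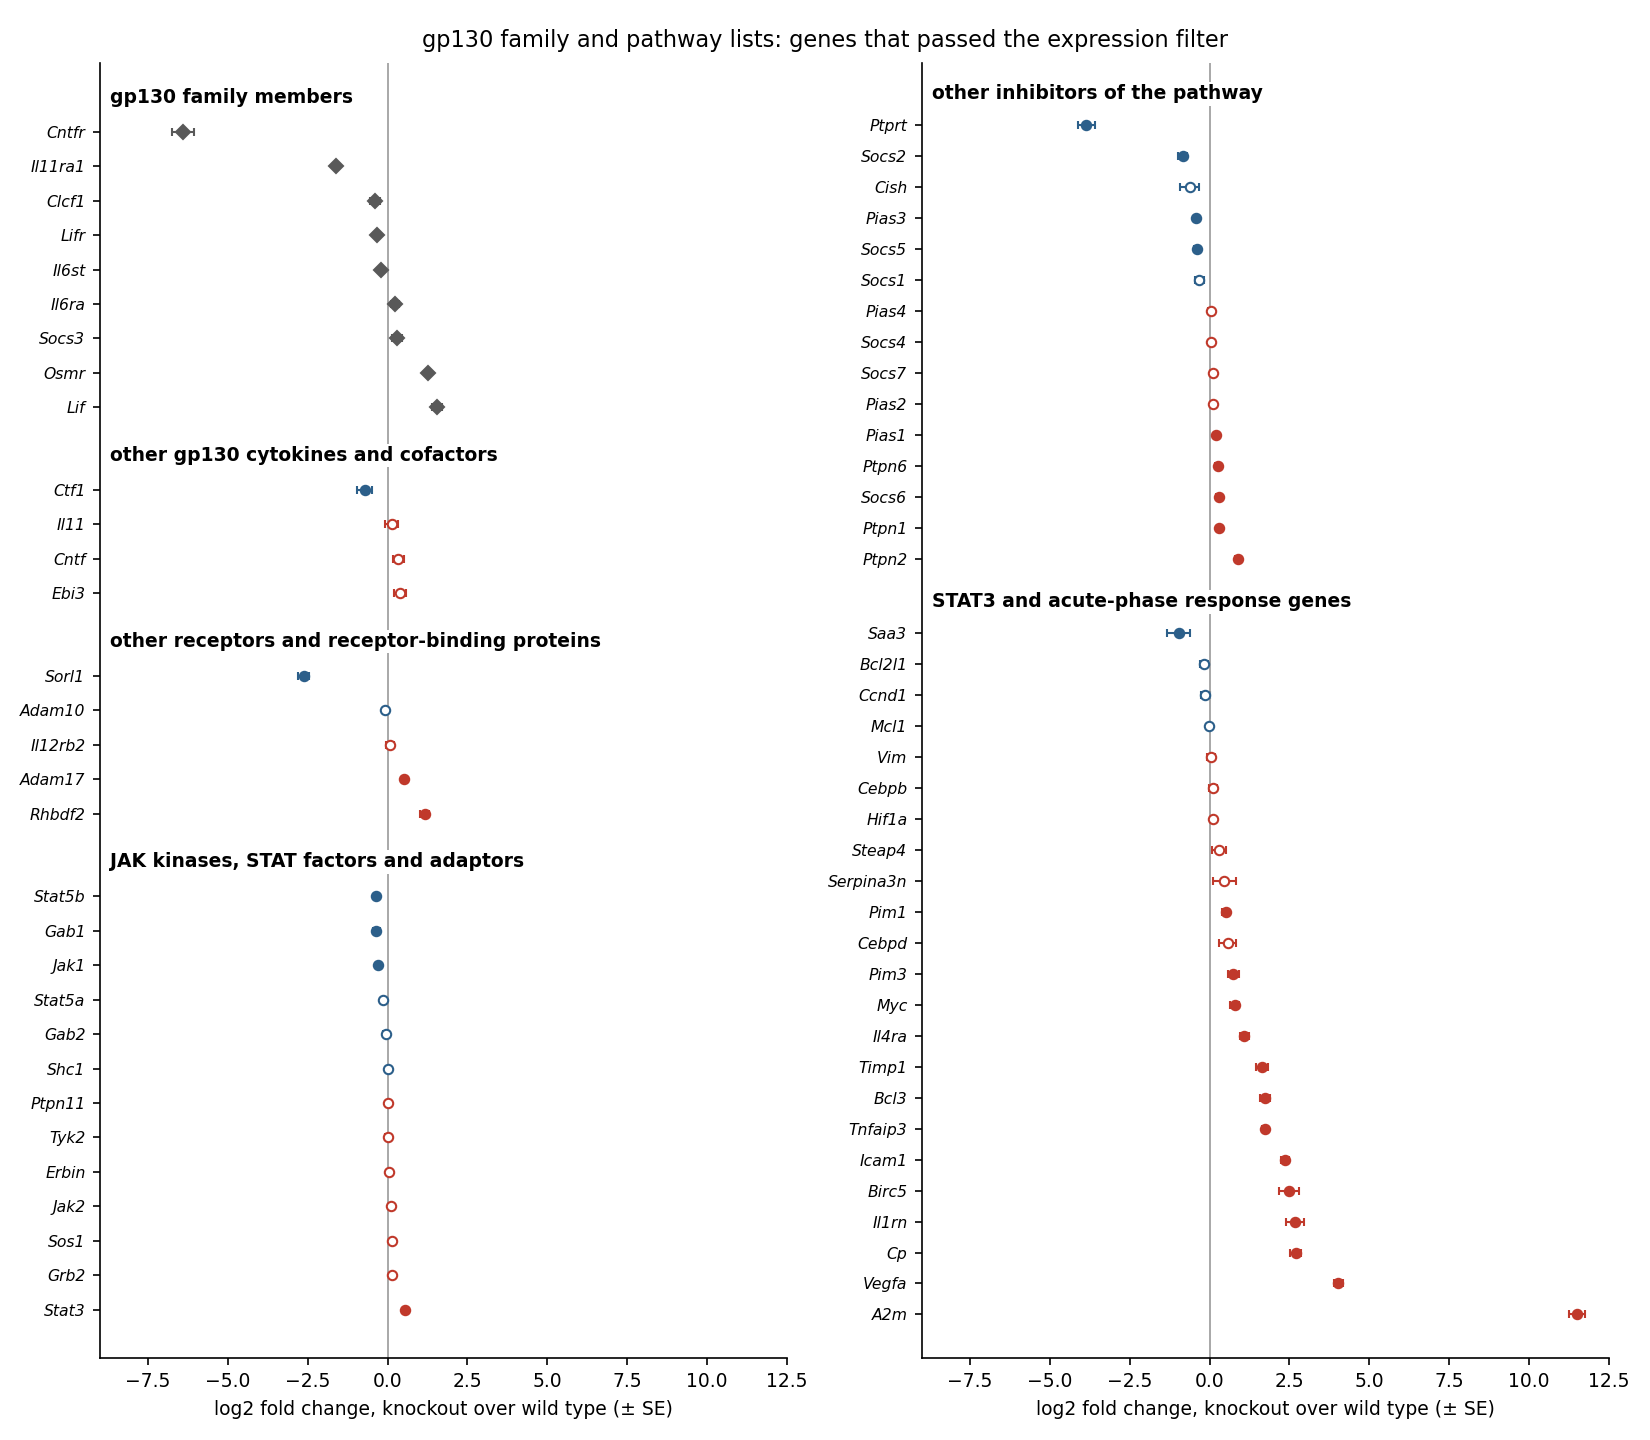
Log2 fold change, knockout over wild type, with its SE (horizontal axis), for the 9 members that passed the expression filter (grey diamonds, no test) and tested genes of 5 pathway lists (circles). Filled circles passed an adjusted p of 0.05 and open circles did not, with red for higher and blue for lower in the knockout. Cntfr, Ptprt and Sorl1 lie farthest to the left and A2m, whose fitted value depends on the prior count, farthest to the right. Most kinases, STAT factors and adaptors lie close to 0, with Stat3 at 0.55, and the sign of Jak1, as of Il6st, turns with total counts.

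Scores of markers of other cells and of immediate early genes were compared between the genotypes in the same libraries. A score is the mean log2 CPM of the tested genes of a list, and genotypes were compared by a two-sided exact permutation test with adjustment over 8 scores. The endothelial score, on 9 of 13 listed markers, was 2.54 to 5.63 in the knockout and 1.78 to 2.50 in the wild type (difference 2.06, exact adjusted p = 0.00124). The mural score, on 6 of 9, was higher by 2.89 (exact adjusted p = 0.00124), the immediate early score, on 12 of 12, by 0.57 (exact adjusted p = 0.0425), and the tenocyte score, on 10 of 10, was lower by 0.64 (exact adjusted p = 0.00207). Among the 9 tested endothelial markers 7 passed the edgeR threshold, all higher, and Tek and Esam did not pass. The mural list had 4 calls higher and 1 lower (Cspg4, log2 fold change -0.27), and Acta2 did not pass. Over all tested genes 25.6% passed higher and 22.7% lower. Of the 12 immediate early genes 3 passed the edgeR threshold, all higher, and 9 did not, beside 25.6% higher over all tested genes. Of the 10 tenocyte markers 7 passed lower and 1 higher, beside 22.7% and 25.6% of all tested genes. The adipocyte score rested on 1 tested gene of 7, Fabp4, and was higher by 4.04 (exact adjusted p = 0.00249), so it describes that gene only. The other 6 were too low for the test. Adipoq, Plin1, Cfd, Cidec and Retn had higher means in the knockout, and Lep a lower one (0.0606 against 0.266 CPM). The muscle, Schwann cell and macrophage scores did not pass, with differences of 2.06, 0.32 and 0.13 (exact adjusted p = 0.174, 0.174 and 0.200). No neutrophil marker was high enough to be tested, Ly6g was at 0 in every library, and the 8 markers summed to 0.422 to 0.768 CPM in wild type and 0.486 to 4.36 CPM in knockout libraries. The part of these cells in the levels of the members was not tested.

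Within each genotype, where the contrast that chose the members does not enter, the 9 tested members were correlated with the muscle, immediate early and endothelial scores over 8 libraries. Of 54 such relations none passed an adjusted p of 0.05 in a two-sided exact permutation test, and 8 had an unadjusted p under 0.05. Osmr followed the muscle score in the wild type with a Pearson r of 0.863 (exact permutation p = 0.00322, adjusted p = 0.159) and a Spearman rho of 0.952 (exact permutation p = 0.00114, adjusted p = 0.0616), and r was 0.791 without WT5 and WT7. Over the same wild type libraries Osmr spanned only 33.5 to 45.5 CPM. In the knockout Osmr followed the endothelial score with r = 0.722 (exact permutation p = 0.0397, adjusted p = 0.319; rho 0.738, exact permutation p = 0.0458, adjusted p = 0.371) and with r = 0.820 without KO2 and KO7. Lif ran the other way, at r = -0.773 with the endothelial score in the knockout (exact permutation p = 0.0360, adjusted p = 0.319; rho -0.738, exact permutation p = 0.0458, adjusted p = 0.371), and r was -0.879 without the same libraries.

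Socs3 followed the immediate early score in the wild type with r = 0.861 (exact permutation p = 0.00590, adjusted p = 0.159) and rho = 0.690 (exact permutation p = 0.0694, adjusted p = 0.371). Without WT4 and WT5, the libraries with the highest score and the highest Socs3, r was 0.264, so the relation rested on them. Lif in the wild type behaved alike, with r = 0.745 (exact permutation p = 0.0375, adjusted p = 0.319; rho 0.429, exact permutation p = 0.299, adjusted p = 0.630) and r = 0.063 without WT4 and WT5. The other 3 with an unadjusted p under 0.05 involved Cntfr, Lif and Il6st. Cntfr in the knockout, with its 21 counts, followed the endothelial score at r = 0.752 (exact permutation p = 0.0316, adjusted p = 0.319; rho 0.802, exact permutation p = 0.0222, adjusted p = 0.371), and r was 0.459 without KO2 and KO7. Lif in the knockout ran against the muscle score at r = -0.750 (exact permutation p = 0.0473, adjusted p = 0.319; rho -0.667, exact permutation p = 0.0831, adjusted p = 0.371), with r = -0.791 without KO7 and KO8. Il6st in the wild type ran against the endothelial score at r = -0.721 (exact permutation p = 0.0444, adjusted p = 0.319; rho -0.643, exact permutation p = 0.0962, adjusted p = 0.371), and r was -0.050 without WT5 and WT6. Immediate early genes respond within minutes to handling of tissue, and whether handling had a part in the Socs3 level was not tested.

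**Figure D4:**
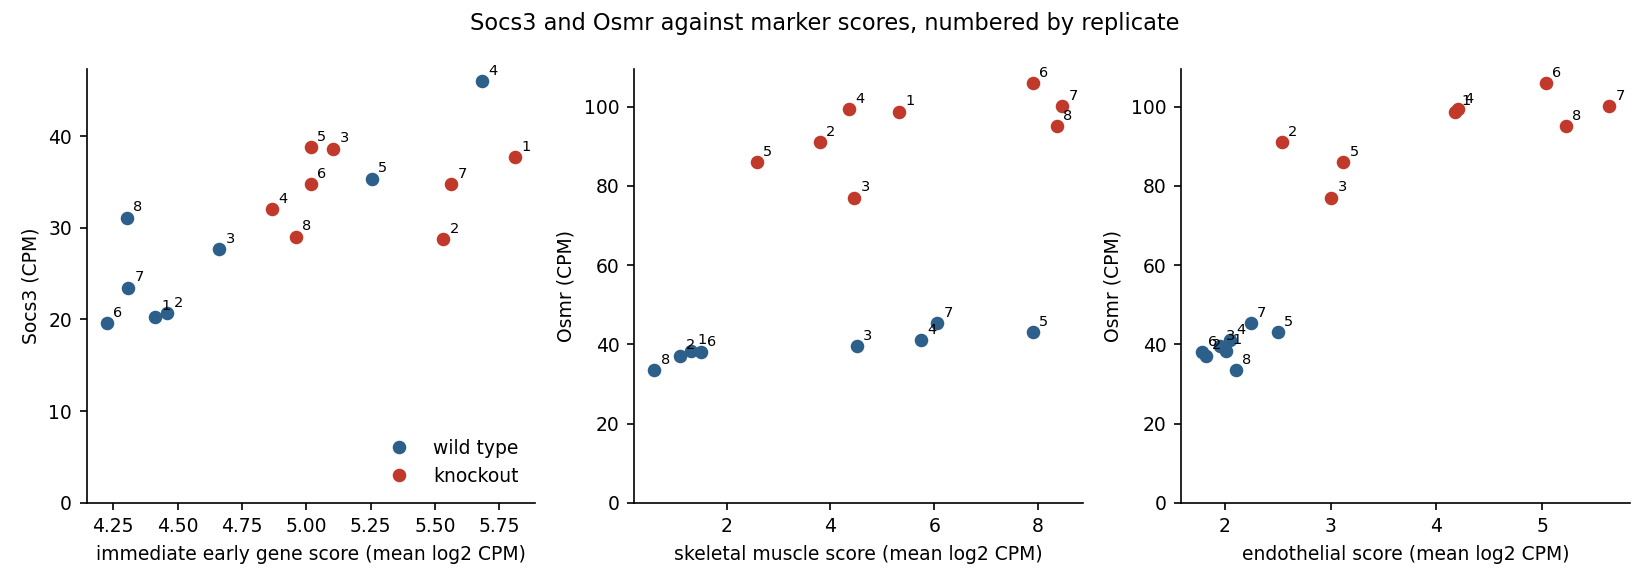
Levels in CPM (vertical axes) against marker scores in mean log2 CPM (horizontal axes), 1 point per library, numbered as in the titles: Socs3 against the immediate early score, and Osmr against the muscle and endothelial scores. Osmr of the knockout lies between 77.1 and 106 CPM and that of the wild type between 33.5 and 45.5 CPM at every score, while Socs3 is highest in wild type library 4.

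The tested genes whose profile over the 16 libraries was most like that of Cntfr were Cck, Gm12394, Dpysl5, Kcnb2 and Rnf182. Likeness was the root mean square distance between log2 CPM profiles, each centred on the wild type mean of its gene, and it was 0.539, 0.627, 0.640, 0.641 and 0.677 for these genes. Cck, which encodes the peptide cholecystokinin, had 12.2 ± 3.94 CPM over the wild type and 0.137 ± 0.125 CPM over the knockout libraries (SD, n = 8). Kcnb2, a potassium channel subunit, had 10.4 ± 4.32 and 0.0673 ± 0.0767 CPM. All 5 were near the floor in the knockout and at 10.4 to 15.4 CPM on average in the wild type beside 15.4 CPM for Cntfr. Their log2 fold changes lay between -7.10 (Kcnb2) and -6.42 (Cck). Both genotypes enter the distance, and with them the contrast on which Cntfr was noticed. Shared regulation of these genes was not tested.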

How the data were processed

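The authors deposited 1 file per library with counts for 25719 Ensembl genes under the header matchCounts, and these were assumed to be raw counts. The submitters' processing notes name kallisto, featureCounts and GRCm39. Which program made the deposited counts, and the use of strand in counting, are not given in the sources used here. Symbols were matched for 25614 identifiers. GENCODE M21 on GRCm38 served only for symbols, exon lengths and overlaps, and promoter windows are RefSeq's on GRCm38.p6.

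Counts were tested with edgeR 4.0.16 in R 4.3.3 (TMM, default filter on genotype, robust quasi-likelihood F test, two-sided, genotype as the only term). P-values were adjusted by the Benjamini-Hochberg method over the 14803 genes that passed the filter, and the threshold was 0.05. Levels are CPM on TMM-scaled library sizes. Log2 CPM for scores and profiles used a prior count of 2. The floor of detection was 3 counts, which is 0.145 to 0.336 CPM, and intervals and floors cover counting error only. Means carry the SD over 8 libraries. The fit was tested on simulated data. No library repeated another: the most similar pairs had a chi-square of 8.67 (knockout) and 6.56 (wild type) per degree of freedom over 14096 genes. Exact permutation tests used all 12870 assignments of libraries to groups, with a smallest possible p of 0.000155, or all 40320 pairings of 8 libraries, in scipy 1.17.1.

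The members and all lists were chosen with earlier results of these data known. Named besides the members were Vhl, Jak1, Jak2, Tyk2 and Stat3, the 5 genes past the threshold with the largest absolute log2 fold change in each of 5 pathway lists, and the 5 genes most like Cntfr. Some genes that this rule gave are counted in the list totals and not reported here by name. Genotypes share replicate numbers, but nothing states that the numbers pair the libraries, and they were not used in the main fit. The alternatives were DESeq2 size factors, total counts, TMM without the 20 most abundant genes, no filter, a filter at a mean of 10 counts, the replicate number as a block, the muscle score as a covariate, DESeq2 1.42.0 with its Wald test, limma-voom (limma 3.58.1) with sample quality weights, the longest transcript as the length, and each library left out in turn.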

Additional observations from a re-analysis of the deposited data

Results flagged for a closer look

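Each member and named pathway gene was checked for a library far from the other 7 of its genotype. The marker scores were checked alike. Over 76 checks 4 libraries stood apart, where chance gives about 1 in 20, or 3.8. Of these, 3 concern members: Cntfr in KO7 (0.533 CPM, next highest 0.241), Lifr in KO4 (147 CPM, next 124) and Lif in WT4 (3.97 CPM, next 3.09). The other is Stat3 in KO1 (164 CPM, next 143). KO7 also had the highest endothelial score (5.63) and muscle score (8.46) of the knockout, and WT4 the highest immediate early score (5.68) of the wild type. The part of these scores in the levels was not tested.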

How the results depend on the processing

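Over 25 alternatives for each of 29 named genes with a test, 684 values kept their direction and side of the threshold, and 16 genes had no changed call. Ranges over the alternatives were -7.13 to -6.12 for Cntfr, -1.68 to -1.30 for Il11ra1, 1.17 to 1.56 for Osmr, 1.47 to 1.84 for Lif and 0.51 to 0.85 for Stat3. Total counts turned Il6st to 0.11 and Jak1 to 0.0105, moved the receptor list from 3 to 5 calls (4 higher, 1 lower) and the kinase and STAT list from 4 to 10 (10 higher, 0 lower). The list of cytokines and cofactors had 1 call in place of 2 with the replicate block and with limma-voom, where Ctf1 no longer passed (-0.63 and -0.61), as with total counts (-0.41). Tyk2 was at -0.00295 with DESeq2 size factors and -0.00373 in its Wald test, and at -0.036 to 0.051 with a library left out. With a library left out, all calls numbered 6790 to 7151, and the lists of cytokines, receptors, kinases and STAT factors, inhibitors, and STAT3 and acute-phase genes had 2 to 3, 3, 4 to 6, 8 to 10 and 13 to 16. Among members, Il6st lost its place among the 7 past the threshold without WT6 (-0.16) and with the muscle covariate (-0.17), and Clcf1 did so under 12 of 25 alternatives (-0.49 to -0.12 over all), among them those without KO2, KO3, KO5, KO6, KO8, WT1, WT2, WT3 or WT5. Il6ra passed without WT7 (0.32), Socs3 without WT4 (0.43), and Jak2 without KO1 (0.12), and with total counts all of these (0.55, 0.58 and 0.41) and Tyk2 (0.31) passed. The calls of members describe the contrast that chose them and are no evidence. Replicate numbers did not pair the libraries (correlations of same-numbered deviations -0.397 to 0.394; 1 of 8 knockout libraries closest to its own number), and the replicate block gave 7010 calls. At this depth Il6, and Cntfr in the knockout, are at the limit of counting.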
